A study of Mus musculus with 10 samples.

Results

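The type 2 cytokine locus of mouse chromosome 11 holds *Il4*, *Il13* and *Il5* together with *Rad50*, which lies between *Il13* and *Il5*, and the 3′ neighbour of *Il4*, *Kif3a*. Interleukin-4 drives class switching to IgE, interleukin-13 drives mucus production by goblet cells, and interleukin-5 supports eosinophils. RAD50 is a subunit of a complex that repairs DNA double-strand breaks, and KIF3A is a motor subunit of intraflagellar transport. In T helper 2 cells the last introns of *Rad50* hold a locus control region for the cytokine genes, and the interval between *Il4* and *Il13* holds conserved noncoding elements that bind GATA3, the transcription factor that also defines group 2 innate lymphoid cells (ILC2s). ILC2s are tissue-resident lymphocytes without antigen receptors that secrete these cytokines.

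Members of the locus were all regions of the deposited ATAC-seq count table that lay from start to end within chr11:53550000-53740000 (mm10), which gave 27 of 50039 regions. ATAC-seq uses the Tn5 transposase to tag open chromatin, so the reads at a region measure its accessibility. ILC2s were sorted from bone marrow (BM), lung, pancreas, and the small (SI) and large (LI) intestine of wild-type male C57BL/6 mice aged 6 weeks, with 2 libraries per tissue and 50000 cells per library, pooled from 16 mice (BM, lung and pancreas) or 10 mice (LI and SI). BM cells were taken as Lin–ST2+CD25+, LI, lung and pancreas cells as Lin–CD45+CD127+ST2+CD25+, and SI cells as Lin–CD45+CD127+KLRG1+ with a Thy1 gate and no gate on ST2. BM cells were sorted on another instrument than the rest, so tissue, gate and sorter cannot be told apart. A tissue's values are those of pooled mice, and a smaller share of cells with an open region and less accessibility per cell cannot be told apart either.

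Counts over all regions summed to between 10282987 (pancreas replicate 2) and 32797872 (lung replicate 2) per library. Levels are given as CPM, the depth-scaled count of a region with library sizes set by TMM. Intervals on counts take in counting error only. They treat reads as independent molecules, which PCR copies are not, so they may be too narrow. Promoter regions of 7 of 8 ILC2 marker genes were in the table, with a summed level of 206 to 330 CPM over the 10 libraries, and *Thy1* had none. Of the T cell markers, 3 of 6 had a promoter region (5.80 to 13.9 CPM, without *Cd3d*, *Cd4* or *Cd8a*), and of the myeloid markers 1 of 5 (*Spi1*, 0.386 to 9.29 CPM, highest in SI replicate 1). The 4 B cell markers, the 6 of mast cells, basophils and eosinophils, the 3 of NK cells and ILC1s, the 3 of ILC3s and *Epcam* of epithelium had no promoter region in the table.

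The sequences of regions with large differences between tissues are shown as the central 300 bases of 4 regions, read from GRCm38, the assembly of mm10. Capitals mark the GATA words, which are the letters GATA after A or T and before A or G and are preferred by GATA factors, on either strand. The intron 5 region of *Kif3a*, at chr11:53582804-53583103 (plus strand), was highest in SI.
Kif3a intron 5: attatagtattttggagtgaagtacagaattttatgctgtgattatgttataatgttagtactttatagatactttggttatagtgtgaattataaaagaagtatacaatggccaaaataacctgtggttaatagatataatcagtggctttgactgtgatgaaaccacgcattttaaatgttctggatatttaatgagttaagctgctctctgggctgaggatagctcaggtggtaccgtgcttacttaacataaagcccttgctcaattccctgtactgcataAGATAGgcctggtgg
The region just past the 3′ end of *Il13*, at chr11:53630966-53631265 (plus strand), was highest in lung.
Il13 downstream: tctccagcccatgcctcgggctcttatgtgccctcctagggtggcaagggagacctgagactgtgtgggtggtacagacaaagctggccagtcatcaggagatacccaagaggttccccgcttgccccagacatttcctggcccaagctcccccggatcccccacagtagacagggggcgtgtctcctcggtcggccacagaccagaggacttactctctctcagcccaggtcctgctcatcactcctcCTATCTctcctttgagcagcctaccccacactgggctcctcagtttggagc
The intron 7 region of *Rad50*, at chr11:53693520-53693819 (plus strand), had few reads in BM.
Rad50 intron 7: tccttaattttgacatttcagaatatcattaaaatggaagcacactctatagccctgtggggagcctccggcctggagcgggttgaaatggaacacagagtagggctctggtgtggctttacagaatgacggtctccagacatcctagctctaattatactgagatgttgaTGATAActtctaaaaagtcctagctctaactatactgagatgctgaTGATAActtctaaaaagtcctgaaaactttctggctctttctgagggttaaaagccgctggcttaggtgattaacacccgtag
The region between *Rad50* and *Il5*, at chr11:53711203-53711502 (plus strand), was highest in pancreas and held 4 GATA words in its central 300 bases.
Rad50 to Il5: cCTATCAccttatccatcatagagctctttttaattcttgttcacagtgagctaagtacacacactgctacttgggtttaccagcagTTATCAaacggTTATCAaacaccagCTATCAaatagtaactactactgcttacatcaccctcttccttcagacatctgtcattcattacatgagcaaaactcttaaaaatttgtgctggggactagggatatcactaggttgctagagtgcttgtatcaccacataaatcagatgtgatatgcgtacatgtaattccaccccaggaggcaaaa
The 200 bases upstream of the start sites of *Il13* (chr11:53634703-53634902, minus strand) and *Il5* (chr11:53720594-53720793, plus strand), from RefSeq on GRCm38, are also shown. Those of *Il13* lie in a promoter region that was not called over the tissues (edgeR adjusted p = 0.717). Those of *Il5* lie mostly in the region over its start site, which was called (edgeR adjusted p = 0.00902). Each stretch of 200 bases held 1 GATA word.
Il13 upstream: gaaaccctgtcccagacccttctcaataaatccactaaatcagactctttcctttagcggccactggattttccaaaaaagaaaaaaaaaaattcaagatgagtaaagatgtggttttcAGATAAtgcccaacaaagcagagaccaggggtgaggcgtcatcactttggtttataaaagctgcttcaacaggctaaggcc
Il5 upstream: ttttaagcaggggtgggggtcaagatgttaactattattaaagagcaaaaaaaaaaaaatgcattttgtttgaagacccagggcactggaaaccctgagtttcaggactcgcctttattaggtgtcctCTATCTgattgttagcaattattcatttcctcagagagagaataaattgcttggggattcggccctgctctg

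The 27 regions fell into 7 groups by position. Upstream of *Kif3a* lay 1 region and inside the gene 4, of which 1 covered its start. Between *Kif3a* and *Il4* lay 2 regions and inside *Il4* another 2. No region covered the start of the coding *Il4* transcript (position 53618665), and the region at chr11:53617321-53617876 lay in its intron 2, at the start of a noncoding *Il4* transcript (position 53617338). Between *Il4* and *Il13* lay 3 regions, the last of which ran into the 3′ end of *Il13*, and 1 region lay at the *Il13* promoter and 1 upstream of it. *Rad50* held 6 regions, in introns 24, 22, 21 (2 regions) and 7 and at exon 1. The remaining 7 lay around *Il5*: 2 between it and *Rad50*, 1 at its promoter, 1 at its start site and exon 1, and 3 downstream.

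**Figure D1:**
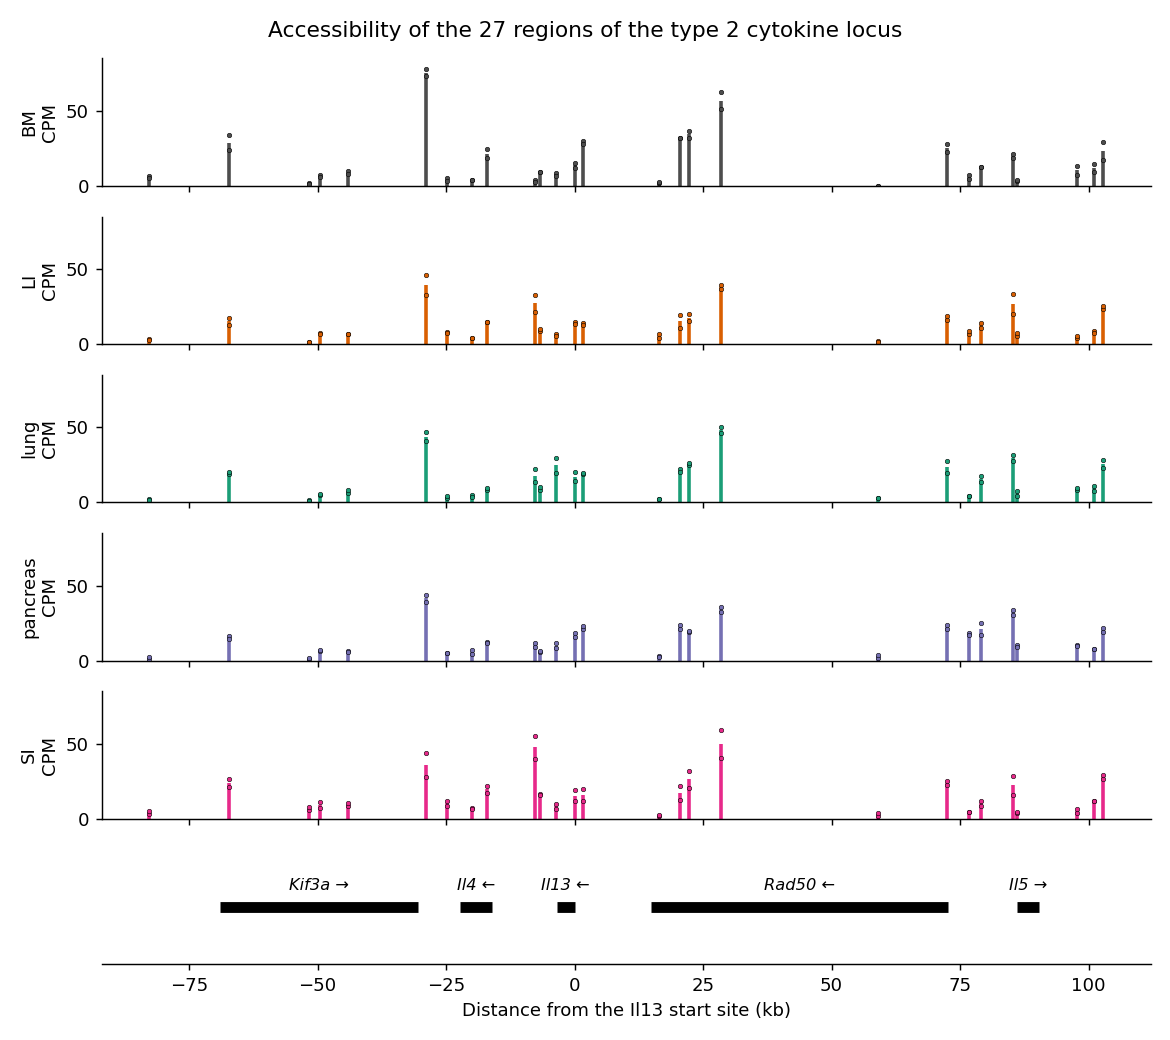
Accessibility along the type 2 cytokine locus. The 5 panels are tissues, the x axis gives the distance from the *Il13* start site in kb, lines mark the mean CPM of each of the 27 regions, points mark its 2 libraries, and the bars at the bottom mark the genes. The region between *Il4* and *Il13* has a mean of 3.45 CPM in BM and 47.8 in SI.

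Over the 5 tissues, 19 of the 27 regions differed (edgeR F test, adjusted p under 0.05), which is 70.4% of the locus against 44.2% of the 49981 regions tested. Without BM replicate 1 the same test called 11 of 27 regions in the locus and 31.4% of all regions. Of the windows of the same length on either side, the upstream one had 5 of 14 regions called and the downstream one 14 of 20. The median log2 range of tissue means was 1.09 in the locus and 0.915 over all regions. The regions of the locus also had a higher median level, 11.5 CPM against 7.33 over all regions. Outside promoters 16 of 22 regions in the locus and 48.0% of all regions were called. Whether level or class accounts for the difference in calls was not tested. The highest mean was in BM for 11 of the 27 regions, in SI for 8, in pancreas for 4, in lung for 3 and in LI for 1, whereas over all regions the shares were 28.9% for BM, 24% for SI, 17.0% for pancreas, 14.3% for lung and 15.7% for LI. The summed level of the 27 regions was 482 and 440 CPM in BM, 378 and 438 in lung, 398 and 373 in pancreas, 331 and 386 in LI, and 369 and 508 in SI. Both BM libraries lay above those of LI, lung and pancreas in this sum, for lung by a small margin, and the replicates of SI stood farthest apart, with SI replicate 2 above replicate 1 at 24 of the 27 regions against 50.8% of all regions.

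**Figure D2:**
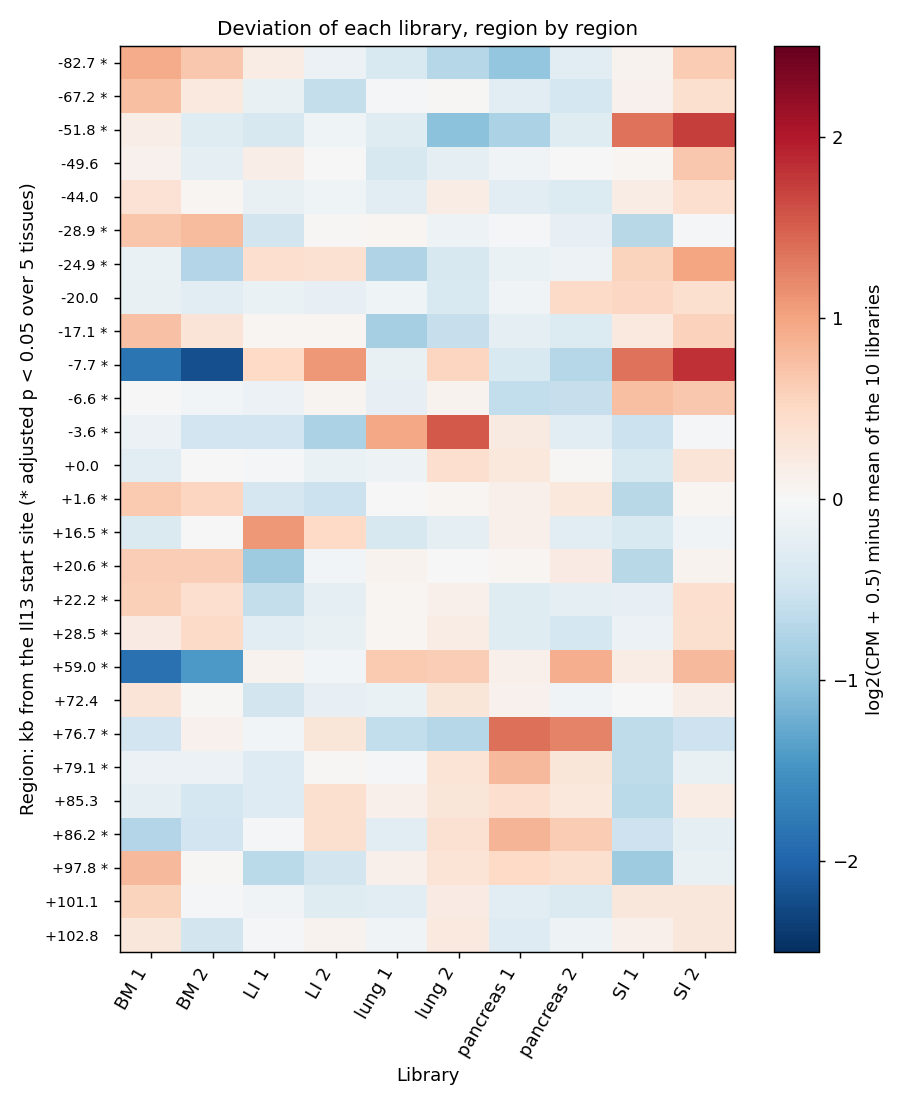
Level of each of the 27 regions in each of the 10 libraries. Rows are regions in order of position, columns are libraries, and the color gives log2(CPM + 0.5) minus the mean of the row, with stars at the 19 regions called over the tissues. No tissue is high over the whole locus, and the highest tissue changes from region to region.

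The interval between *Il4* and *Il13* held the region with the largest difference between tissues in the locus. Its level was 3.96 and 2.95 CPM in BM, 13.4 and 22.3 in lung, 11.5 and 9.06 in pancreas, 21.7 and 32.8 in LI, and 40.1 and 55.4 in SI. Both BM libraries lay below and both SI libraries above those of the remaining tissues. Against BM the level was 13.8-fold higher in SI (log2 3.79 ± 0.32 SE, edgeR adjusted p = 1.58e-06), 7.92-fold in LI (2.99 ± 0.31, adjusted p = 8.05e-06), 5.19-fold in lung (2.38 ± 0.31, adjusted p = 6.23e-05) and 3.01-fold in pancreas (1.59 ± 0.31, adjusted p = 0.00198). SI also exceeded pancreas by 4.60-fold (edgeR adjusted p = 7.88e-05) and lung by 2.66-fold (adjusted p = 0.00169). LI exceeded pancreas by 2.64-fold (edgeR adjusted p = 0.0146), while LI and lung (log2 difference 0.61 ± 0.28, adjusted p = 0.180), lung and pancreas (0.79 ± 0.29, adjusted p = 0.123), and SI and LI (0.80 ± 0.28, adjusted p = 0.0833) did not pass the threshold as neighbours in the order. SI over LI passed with scaling to library size alone (log2 1.03, adjusted p = 0.0346) and without SI replicate 1 (0.98, adjusted p = 0.0477).

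Its neighbour at chr11:53627797-53628329 followed another order. The level was 9.64 and 9.16 CPM in BM, 8.27 and 10.2 in lung, 6.07 and 6.26 in pancreas, 8.63 and 10.0 in LI, and 16.4 and 15.5 in SI. SI lay above and pancreas below the other libraries, and BM, LI and lung shared a range. SI exceeded pancreas by 2.59-fold (log2 1.37 ± 0.25, edgeR adjusted p = 0.000958), lung by 1.73-fold (adjusted p = 0.0232) and BM by 1.70-fold (adjusted p = 0.0247). Within each library, which takes out its depth, the counts of the first region divided by those of this neighbour were 0.411 and 0.322 in BM, 1.63 and 2.19 in lung, 1.90 and 1.45 in pancreas, 2.52 and 3.26 in LI, and 2.45 and 3.57 in SI. The regions therefore changed unequally between BM and the other tissues.

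At the 3′ end of *Il13*, the region chr11:53630845-53631386, centred 3587 bp downstream of the start, was highest in lung. Its level was 19.9 and 29.8 CPM in lung, 9.0 and 7.04 in BM, 7.06 and 5.56 in LI, 11.8 and 8.30 in pancreas, and 6.74 and 9.75 in SI. Both lung libraries lay above the other 8, whose values ran together. Lung exceeded LI by 3.97-fold (log2 1.99 ± 0.30, edgeR adjusted p = 0.000564), BM by 3.10-fold (1.63 ± 0.29, adjusted p = 0.000752), SI by 3.0-fold (1.59 ± 0.29, adjusted p = 0.000876) and pancreas by 2.45-fold (1.29 ± 0.29, adjusted p = 0.0157). The difference from pancreas was not called without lung replicate 2 (log2 0.98, edgeR adjusted p = 0.259) or without pancreas replicate 2 (1.08, adjusted p = 0.205).

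The *Il13* promoter region, chr11:53634445-53634968, centred at −4 bp from the start site, was not called over the tissues (edgeR adjusted p = 0.717). Its level was 12.4 and 15.2 CPM in BM, 14.0 and 20.6 in lung, 18.4 and 15.5 in pancreas, 14.6 and 13.6 in LI, and 11.6 and 19.3 in SI. No tissue stood apart, and the SI replicates alone spanned most of the range. The largest pairwise difference, lung over BM, was 1.26-fold (log2 0.33 ± 0.27 SE, edgeR adjusted p = 0.437). The region next upstream, chr11:53636033-53636621, differed over the tissues (edgeR adjusted p = 0.00971, and 0.0637 without BM replicate 1). It measured 30.2 and 27.8 CPM in BM, 18.9 and 19.7 in lung, 20.8 and 23.0 in pancreas, 14.2 and 12.9 in LI, and 11.6 and 19.7 in SI. BM was 2.14-fold higher than LI (log2 1.10 ± 0.24, edgeR adjusted p = 0.00315) and 1.85-fold higher than SI (0.89 ± 0.24, adjusted p = 0.0117).

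**Figure D3:**
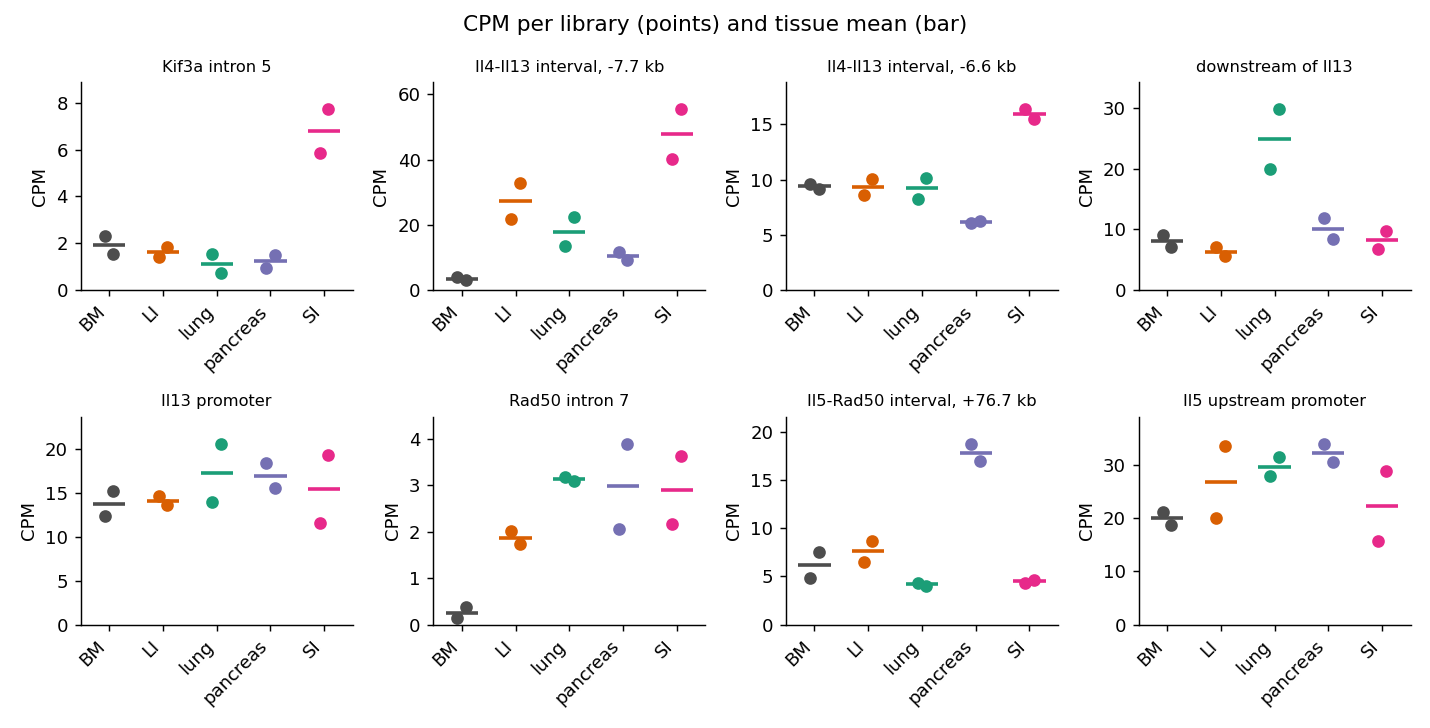
CPM of 8 regions of the locus by tissue. Each panel is 1 region, each point 1 library, and each bar the mean of the 2 libraries of a tissue, on a y axis that starts at 0. BM is lowest between *Il4* and *Il13* and in *Rad50* intron 7, lung is highest past the 3′ end of *Il13*, pancreas is highest between *Rad50* and *Il5*, and no tissue stands apart at the *Il13* promoter.

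At *Il4*, the region at the start of the noncoding transcript, chr11:53617321-53617876, was lowest in lung. It measured 24.8 and 18.4 CPM in BM, 8.0 and 9.72 in lung, 12.4 and 11.4 in pancreas, 15.1 and 15.1 in LI, and 17.5 and 22.1 in SI. Lung lay below the other libraries, and BM and SI overlapped at the top. BM was 2.43-fold (log2 1.28 ± 0.24, edgeR adjusted p = 0.00103) and SI 2.23-fold (1.16 ± 0.24, adjusted p = 0.00207) above lung. The other intron 2 region, chr11:53614442-53614957, ranged from 3.75 to 7.46 CPM and was not called over the tissues (edgeR adjusted p = 0.114).

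Downstream of *Il4* lay a pair of regions with different orders. The nearer, chr11:53609560-53610060, measured 5.19 and 3.31 CPM in BM, 3.25 and 4.31 in lung, 5.12 and 5.28 in pancreas, 8.02 and 7.78 in LI, and 8.81 and 12 in SI. Both intestinal tissues lay above the other 3, with no overlap of libraries. SI exceeded lung by 2.75-fold (log2 1.46 ± 0.30, edgeR adjusted p = 0.00229), and LI exceeded lung by 2.08-fold (1.06 ± 0.30, adjusted p = 0.0337). The farther, chr11:53605500-53606139, measured 73.2 and 78.0 CPM in BM, 46.7 and 41.2 in lung, 44.0 and 39.2 in pancreas, 32.7 and 46.1 in LI, and 27.6 and 44.1 in SI. BM stood apart and the other 4 tissues overlapped. BM exceeded SI by 2.1-fold (log2 1.07 ± 0.23, edgeR adjusted p = 0.00244), LI by 1.91-fold (adjusted p = 0.00587), pancreas by 1.82-fold (adjusted p = 0.0128) and lung by 1.72-fold (adjusted p = 0.0218). Over the tissues its edgeR adjusted p was 0.00478, and 0.0634 without BM replicate 2.

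In *Kif3a*, the intron 5 region chr11:53582703-53583203 measured 2.30 and 1.52 CPM in BM, 1.53 and 0.718 in lung, 0.942 and 1.51 in pancreas, 1.39 and 1.82 in LI, and 5.87 and 7.73 in SI. Both SI libraries lay above the other 8, whose values ran together. SI exceeded lung by 6.14-fold (log2 2.62 ± 0.46, edgeR adjusted p = 0.000734), pancreas by 5.71-fold (2.51 ± 0.49, adjusted p = 0.00174), LI by 4.16-fold (2.06 ± 0.46, adjusted p = 0.0106) and BM by 3.57-fold (1.83 ± 0.45, adjusted p = 0.00633). Without LI replicate 1 or 2 the difference from LI was 1.90 or 2.27 on the log2 scale with an edgeR adjusted p of 0.0814 or 0.0573. The region covering the *Kif3a* start, chr11:53567224-53567774, measured 13.1 to 34.1 CPM and was called over the tissues (edgeR adjusted p = 0.0136). Upstream of *Kif3a*, chr11:53551723-53552241 measured 6.61 and 5.52 CPM in BM, 2.39 and 1.79 in lung, 1.41 and 2.59 in pancreas, 3.75 and 2.91 in LI, and 3.47 and 5.29 in SI. BM lay above the other tissues there, 3.13-fold over pancreas (log2 1.65 ± 0.41, edgeR adjusted p = 0.00879). Without BM replicate 1 the region was not called over the tissues (edgeR adjusted p = 0.0616). The 2 other regions, in introns of *Kif3a*, were not called (edgeR adjusted p = 0.221 and 0.219).

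In the introns of *Rad50* that hold the locus control region, 4 regions were called over the tissues. Their summed level was 122 and 129 CPM in BM, 95 and 99.3 in lung, 79.8 and 78.6 in pancreas, 69.9 and 83.0 in LI, and 75.6 and 116 in SI. BM was highest, lung was next with no overlap with LI or pancreas, and the SI libraries spanned most of that range. The intron 22 region, chr11:53655003-53655532, measured 32.1 and 31.8 CPM in BM, 22.1 and 20.5 in lung, 21.4 and 23.7 in pancreas, 11 and 19.6 in LI, and 12.6 and 21.9 in SI (edgeR adjusted p over tissues = 0.0324). BM lay above all other libraries at this region. The intron 21 regions, chr11:53656683-53657221 and chr11:53662966-53663489, had their highest mean in BM as well (34.4 and 56.9 CPM), and their lowest in LI (17.8 CPM) and pancreas (34.3 CPM) respectively, with edgeR adjusted p over tissues of 0.0180 and 0.0398. The intron 24 region, chr11:53650921-53651421, went another way, with 6.63 and 4.26 CPM in LI against 2.04 to 3.18 in the other 8 libraries. LI was 2.43-fold above lung (log2 1.28 ± 0.39, edgeR adjusted p = 0.0442) and 2.17-fold above BM (1.12 ± 0.39, adjusted p = 0.0408). This region passed the test over tissues narrowly (edgeR adjusted p = 0.0451) and missed it without LI replicate 1 (0.435), with GC and width trends removed (0.144) and with library size alone (0.0833).

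The intron 7 region of *Rad50*, chr11:53693419-53693919, lies far from that cluster and had few reads in BM. It held 3 and 8 reads in the BM libraries, with exact 95% Poisson limits of 0.619 to 8.77 and 3.45 to 15.8 reads, against 23 to 112 reads in the other libraries. In CPM it measured 0.147 and 0.368 in BM, 3.18 and 3.09 in lung, 2.06 and 3.88 in pancreas, 2.00 and 1.74 in LI, and 2.17 and 3.62 in SI. BM lay below the other 8 libraries, and the other 4 tissues lay between 1.74 and 3.88 CPM. Against BM the fitted difference was log2 3.56 ± 0.58 in lung (edgeR adjusted p = 0.000381), 3.46 ± 0.58 in SI (adjusted p = 0.000425), 3.46 ± 0.59 in pancreas (adjusted p = 0.000658) and 2.81 ± 0.60 in LI (adjusted p = 0.00239). Leaving out each library in turn moved the lung difference between 3.07 and 4.36. The region at exon 1, over the *Rad50* start, chr11:53706849-53707401, measured 16.0 to 27.8 CPM and was not called (edgeR adjusted p = 0.329).

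Between *Rad50* and *Il5*, the region chr11:53711102-53711602 was highest in pancreas. It measured 18.7 and 16.9 CPM in pancreas, 4.84 and 7.50 in BM, 6.54 and 8.65 in LI, 4.31 and 4.0 in lung, and 4.28 and 4.67 in SI. Both pancreas libraries lay well above the other 8. Pancreas exceeded lung by 4.29-fold (log2 2.1 ± 0.28, edgeR adjusted p = 0.00102), SI by 3.98-fold (1.99 ± 0.28, adjusted p = 0.000141), BM by 2.89-fold (1.53 ± 0.28, adjusted p = 0.00108) and LI by 2.33-fold (1.22 ± 0.28, adjusted p = 0.0242). The difference from LI was not called without LI replicate 1, LI replicate 2, pancreas replicate 1 or pancreas replicate 2 (log2 1.05 to 1.46, edgeR adjusted p = 0.156, 0.0942, 0.213 and 0.0931). The next region, chr11:53713558-53714090, also had its highest mean in pancreas (24.9 and 17.4 CPM, against 8.81 to 17.9 in the other libraries), 2.02-fold above SI (log2 1.01 ± 0.26, edgeR adjusted p = 0.0117) and 1.70-fold above BM (0.77 ± 0.26, adjusted p = 0.0423).

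At the *Il5* promoter, the region chr11:53719682-53720286, centred at −810 bp from the start site, was not called over the tissues (edgeR adjusted p = 0.190). It measured 21.2 and 18.6 CPM in BM, 27.8 and 31.4 in lung, 33.9 and 30.4 in pancreas, 20.0 and 33.5 in LI, and 15.7 and 28.8 in SI. The replicates of LI and those of SI differed by more than the tissue means did, and without SI replicate 2 the region was called (edgeR adjusted p = 0.0137). The region over the start site and exon 1, chr11:53720604-53721104, measured 3.23 and 3.91 CPM in BM, 4.63 and 7.51 in lung, 10.5 and 9.06 in pancreas, 5.58 and 7.60 in LI, and 3.8 and 4.77 in SI. Both pancreas libraries were highest, and BM and SI had the lowest means. Pancreas exceeded BM by 2.75-fold (log2 1.46 ± 0.32, edgeR adjusted p = 0.00411) and SI by 2.28-fold (1.19 ± 0.32, adjusted p = 0.0132), and LI exceeded BM by 1.86-fold (0.89 ± 0.32, adjusted p = 0.0430). The test over tissues missed the threshold without pancreas replicate 1 (edgeR adjusted p = 0.0624). Downstream of *Il5*, chr11:53732210-53732755 was lower in the intestine, at 4.45 and 5.26 CPM in LI and 3.8 and 6.44 in SI, against 13.4 and 7.64 in BM, 8.15 and 9.52 in lung, and 10.7 and 10.0 in pancreas, with no overlap. The 2 regions farther downstream were not called (edgeR adjusted p = 0.176 and 0.562). The promoter region of *Irf1*, a transcription factor gene that neighbours *Il5* outside the locus, was called over the tissues (edgeR adjusted p = 0.0376), with 69.3 to 89.0 CPM in BM and 35.7 to 68.6 in the other libraries.

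The mean of the intestinal ILC2s (LI and SI) was then set against the mean of BM, lung and pancreas in a single contrast. The study instead compared LI and SI separately with each of the other 3 tissues. In the locus, 4 of 27 regions were higher (14.9% of all regions tested) and 6 were lower (8.51%) in the intestine. The share of higher regions in the locus (14.8%) was thus near that of all regions, and the share of lower regions was 22.2%. The higher regions were that between *Il4* and *Il13* (log2 2.07 ± 0.18 SE, edgeR adjusted p = 1.25e-06), the intron 5 region of *Kif3a* (1.29 ± 0.30, adjusted p = 0.00456), the nearer region downstream of *Il4* (1.05 ± 0.19, adjusted p = 0.000749) and the neighbour between *Il4* and *Il13* (0.59 ± 0.15, adjusted p = 0.00945, and 0.0580 without LI replicate 2). At the *Kif3a* region both LI libraries lay within the range of BM, lung and pancreas, and both SI libraries lay above it. The same held at the neighbour between *Il4* and *Il13*. Of the lower regions, that downstream of *Il5* fell by 0.98 (SE 0.21, edgeR adjusted p = 0.00267), that at the *Il13* 3′ end by 0.81 (SE 0.19, adjusted p = 0.00513) and that upstream of *Il13* by 0.66 (SE 0.16, adjusted p = 0.00567) on the log2 scale. The *Rad50* intron 22 region (−0.60 ± 0.18, edgeR adjusted p = 0.0226), the second region between *Rad50* and *Il5* (−0.48 ± 0.17, adjusted p = 0.0491) and the farther region downstream of *Il4* (−0.46 ± 0.15, adjusted p = 0.0339) completed the 6. These 3 regions lost the call when single libraries were left out, and 3 lower regions remained called without LI replicate 1 and 3 without SI replicate 1. Of the 6 lower regions, only that downstream of *Il5* had no overlap between intestinal and other libraries. At the *Il13* 3′ end lung alone was high (mean 24.8 CPM, against 6.31 to 10.0). At the farther region downstream of *Il4* BM alone was high (75.6 against 35.8 to 43.9). The second region between *Rad50* and *Il5* had means of 21.1 CPM in pancreas, 15.8 in lung, 12.6 in LI, 12.5 in BM and 10.5 in SI. After removal of GC and width trends, 4 regions were higher and 7 lower in the locus, and the share of higher among all called regions was 52.3% instead of 63.7%. The promoter regions of *Il13* (−0.11 ± 0.18) and *Il5* (−0.12 ± 0.18) were not called in this contrast (edgeR adjusted p = 0.706 and 0.679).

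**Figure D4:**
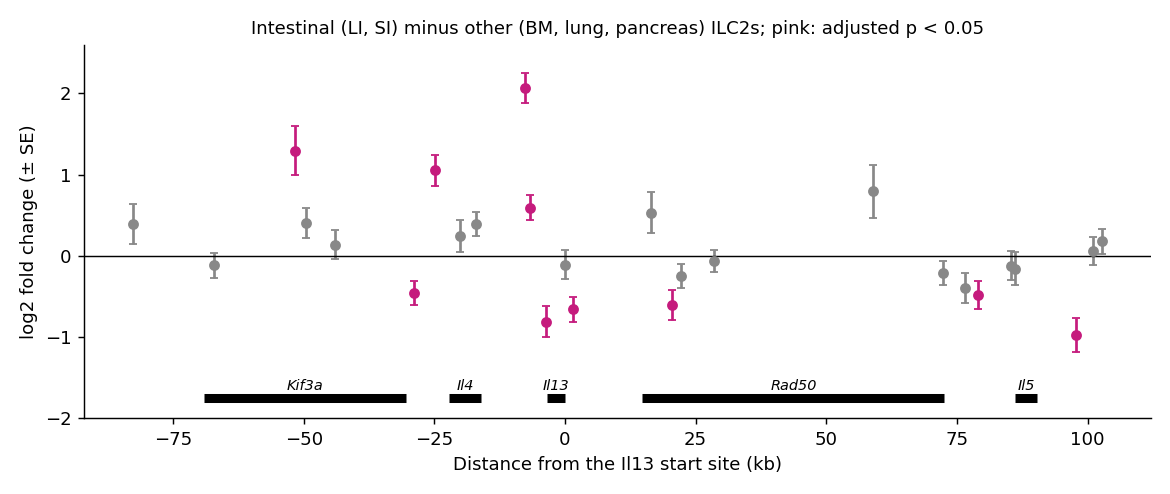
Difference between intestinal (LI and SI) and other (BM, lung and pancreas) ILC2s at the 27 regions. The x axis is the distance from the *Il13* start in kb, the y axis the log2 fold change with its standard error, pink points passed an adjusted p of 0.05, and black bars mark the genes. The 4 called regions above the line at 0 all lie on the side of *Il4*, and the 6 called regions below it are spread over the locus.

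Between single tissues, the counts in the locus were set beside those of all regions. BM and LI differed at 12 of 27 regions (7 higher in BM, 30.9% of all regions called), BM and pancreas at 11 (6 higher in BM, 24.2%), BM and SI at 9 (4 higher in BM, 25.8%) and BM and lung at 6 (3 higher in BM, 19.0%). Pancreas and SI differed at 9 regions (4 higher in pancreas, 20.5% of all regions) and lung and SI at 6 (1 higher in lung, 21.0%). LI and lung differed at 4 regions (3 higher in LI, 10.9%), LI and pancreas at 2 (1 higher in LI, 3.27%), lung and pancreas at 2 (1 higher in lung, 5.82%) and LI and SI at 1, the *Kif3a* intron 5 region (8.44%). These comparisons share libraries, and their counts are not independent of each other. As shares of the locus they ran from 3.70% (LI and SI) to 44.4% (BM and LI). With library size alone, and with a replicate block, LI and lung differed at 2 regions. LI and SI differed at 2 regions with DESeq2, 3 after removal of GC and width trends and 4 with library size alone. Several counts rested on single libraries. Without BM replicate 1, BM differed from LI at 5 regions, from pancreas at 4, from SI at 5 and from lung at 4. BM and LI differed at 5 regions without LI replicate 1 and at 7 without LI replicate 2, BM and pancreas at 5 without either pancreas library, and BM and SI at 5 without BM replicate 2 or SI replicate 1. Pancreas and SI differed at 4 regions without pancreas replicate 1, and lung and SI at 11 without SI replicate 2. LI and lung differed at 1 region without either LI library or either lung library, LI and pancreas at 0 without LI replicate 2 or either pancreas library, at 1 without LI replicate 1 and at 4 without either SI library, LI and SI at 0 without either LI library and at 3 without SI replicate 1, and lung and pancreas at 1 without lung replicate 2 or pancreas replicate 2.

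A further description took regions that were higher, or lower, in 1 tissue than in each of the other 4. Each contrast had to pass an unadjusted edgeR p under 0.05. SI was higher at 3 regions, the *Kif3a* intron 5 region and both in the *Il4* to *Il13* interval (2.80% of all regions). BM was higher at 1, the farther region downstream of *Il4* (4.50%), LI at 1, *Rad50* intron 24 (1.30%), lung at 1, the *Il13* 3′ end (1.30%), and pancreas at 1, the region between *Rad50* and *Il5* (1.43%). BM was lower than each other tissue at 2 regions, that between *Il4* and *Il13* and *Rad50* intron 7 (6.63%), and pancreas was lower at 1, the neighbour between *Il4* and *Il13* (0.572%). LI and SI were both higher than each of BM, lung and pancreas at 1 region, that between *Il4* and *Il13* (2.18%), which the rule no longer selected with adjusted p-values, with library size alone, or without LI replicate 2, lung replicate 1, pancreas replicate 1 or pancreas replicate 2. LI and SI were both lower at 1 region, downstream of *Il5* (0.874%). With adjusted p-values in each contrast the 7 regions higher in 1 tissue became 4. Both regions of the *Il4* to *Il13* interval then failed against LI (edgeR adjusted p = 0.0833 and 0.0553), and *Rad50* intron 24 failed against pancreas (0.248) and SI (0.0733). The lower level of pancreas at the neighbour between *Il4* and *Il13* failed against BM, LI and lung (edgeR adjusted p = 0.0829, 0.241 and 0.183).

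The regions of the locus did not all vary together. Over the 10 libraries, Pearson's r of log2 CPM for the 351 pairs of regions had a median of 0.11, ran from −0.81 to 0.93 and was below 0 for 151 pairs. The 26 pairs of next neighbours had a median r of 0.34. These values share the libraries and their depth and are a description.

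GATA words were common in the sequences of the locus. In the central 500 bases, 23 of 27 regions (85.2%) held a GATA word (AGATAA, with T in place of the first A and G in place of the last A allowed, either strand), against 52.3% of all 50039 regions and 59.4% of those outside promoters. The 4 regions without one were the *Kif3a* start, the region in *Kif3a* at chr11:53590326-53591051, the neighbour between *Il4* and *Il13*, and chr11:53735517-53736025 downstream of *Il5*. The RUNX word TGTGGT was in 12 regions (44.4%, against 39.1% of all), the ETS word CCGGAA in 6 (22.2%, against 16.3%), the AP-1 word TGANTCA in 6 (22.2%, against 23.2%) and the STAT word TTCNNNGAA in 5 (18.5%, against 13.3%). The searches were separate, so words of different motifs may share bases. The AHR word TNGCGTG and the ROR word TAGGTCA were in 1 region each (3.70%, against 8.05% and 5.01%), as were the E-box CACGTG and the longer STAT6 word (against 10.2% and 11.2%). A CTCF motif was in 3 regions (11.1%, against 8.12%) and the cyclic AMP response word in 0 (against 1.72%). A word in a sequence is a description and does not show that a factor binds there.

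By level over the 10 libraries, the promoter regions of other genes most like that of *Il13*, among 11818 compared, were those of *Cbarp* (Pearson's r = 0.91), *Gm22265* (0.89), *Pygl* together with *F730035M05Rik* (0.84), *Grap* (0.82) and *Zscan2* (0.82). The most like that of *Il5* were *Cxcr6*, a chemokine receptor (r = 0.92), *Gm13219* (0.92), *Gm38424* (0.90), *Pstpip1* (0.88) and *Tnfsf4*, the OX40 ligand (0.86).

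Outside the locus, promoter regions of 50 genes of the type 2 pathway were looked up, and 36 had at least 1, with 48 regions in all. Any region of *Nfatc1*, which is among the 50 genes, was left out of these counts. Over the 5 tissues 17 of the 48 were called, where 44.2% of all regions and 31.8% of all promoter regions were. In the intestinal contrast 5 were higher and 5 lower (14.9% and 8.51% of all regions), with a median log2 difference of −0.03, and with library size alone 2 were lower. Of the cytokine genes, 4 regions were in the table and 2 were called over tissues, those of *Il6* (edgeR adjusted p = 0.00841) and *Il2* (0.0493). The region of *Areg*, which encodes amphiregulin, was not called over tissues (edgeR adjusted p = 0.106) and fell by 0.48 on the log2 scale in the intestinal contrast (SE 0.16, adjusted p = 0.0357). Of 7 receptor regions 2 were called, both at start sites of *Il1rl1*, which encodes the IL-33 receptor ST2 (−2.15 ± 0.23, edgeR adjusted p = 6.64e-06, and −1.91 ± 0.25, adjusted p = 4.83e-05). ST2 was a sort marker in 4 tissues and not in SI, so the sort and the tissue cannot be told apart for this gene. Of 37 regulator regions 13 were called over tissues, and 5 were higher in the intestine: a pair at *Irf4* (1.34 ± 0.21, edgeR adjusted p = 0.000215, and 0.99 ± 0.16, adjusted p = 0.000352), 2 of 3 at *Stat5b* (0.97 ± 0.20, adjusted p = 0.00183, and 0.67 ± 0.22, adjusted p = 0.0326) and 1 of 2 at *Bhlhe41* (0.98 ± 0.31, adjusted p = 0.0285). At that *Bhlhe41* region SI replicate 1 alone stood high, at 16.7 CPM. The other intestinal libraries measured 4.53 in SI and 5.84 and 2.91 in LI, against 2.55 to 4.53 in BM, lung and pancreas. The region of *Junb*, an AP-1 subunit, was lower (−0.42 ± 0.13, edgeR adjusted p = 0.0257). BM was highest there, at 122 and 107 CPM, and LI and SI (55.1 to 77.8) overlapped lung and pancreas (72.2 to 93.0). Of the 2 regions of *Gata3*, 1 was lower (−0.42 ± 0.14, edgeR adjusted p = 0.0450) and the other was not called (−0.12 ± 0.12, adjusted p = 0.515). At the lower one pancreas replicate 2 (22.2 CPM) lay within the range of LI and SI (16.4 to 24.9).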

How the data were processed

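The authors trimmed the ATAC-seq reads, mapped them to mm10 with Bowtie2 2.2.9, kept uniquely mapped reads, called peaks with MACS2 2.1.1 in each library, kept those found in both replicates, merged them over tissues and deposited raw counts of reads per merged region. Duplicate removal and a Tn5 shift are not given in the sources used here. Coordinates are printed as deposited, and the sources do not say whether starts count from 0 or 1.

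Regions with at least 1 count (49981, 58 dropped) were tested with edgeR 4.0.16 (TMM, quasi-likelihood, tissue as factor, 10 libraries, Benjamini-Hochberg over all regions). On simulated counts for 49981 regions the F test over 5 tissues recovered 32 of 100 regions changed 2-fold and 99 of 100 changed 4-fold, and called 16 unchanged regions. Chromosome lengths fitted GRCm38, whose RefSeq genes gave positions. Promoters covered 1000 bp before a start and 100 bp after it.

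Named in full were promoter regions of the locus genes and the 12 called regions with the largest range. Regions at the *Kif3a* and *Rad50* starts and the other called or flanking ones were named after their values were seen. Members, gene lists and motif words were chosen with earlier results of these data known. Replicates differed beyond counting noise (chi-square per degree of freedom 12.8 to 56.0). The labels do not tie replicate numbers to shared animals. Alternatives included DESeq2 1.42.0, other scalings, a filter of 10 counts in 2 libraries, GC and width trends removed (loess span 0.3), a replicate block and fits without each library. The sequence of the region between *Il4* and *Il13* is not reported here.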

Additional observations from a re-analysis of the deposited data

How the results depend on the processing

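No result reversed under any alternative run. Of the counts, LI against SI rose from 1 region to 2 with DESeq2, 3 with GC and width trends removed and 4 with library size alone. LI against lung fell from 4 regions to 2 with library size alone and to 2 with the replicate number as a block. Regions higher in LI and SI than in each other tissue went from 1 to 2 with edgeR on the 4 libraries of each comparison, 0 with library size alone and 0 with adjusted p-values. Regions higher in 1 tissue went from 7 to 4 with adjusted p-values, and pathway promoter regions lower in the intestine from 5 to 2 with library size alone. The cause of these shifts was not tested. The filter of 10 counts in 2 libraries and DESeq2's size factors moved no such count by over 1.5 times. With each library left out in turn, the count over the 5 tissues was 11 to 20, intestinal higher 3 to 6, intestinal lower 3 to 7 and LI and SI both higher 0 to 1. In the same way BM against LI gave 5 to 12, BM against SI 5 to 10, BM against lung 4 to 7, BM against pancreas 4 to 12, LI against SI 0 to 3, LI against lung 1 to 6, LI against pancreas 0 to 4, lung against SI 5 to 11, lung against pancreas 1 to 2, pancreas against SI 4 to 10, regions higher in 1 tissue 5 to 8 and regions lower in 1 tissue 2 to 4. These fits assume that the tissue left with 1 library varies like the others. Each value of a single region was refitted without each library in turn. Most of these fits kept direction and call, while some lost the call and fewer gained it.

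The difference in log2 CPM of replicate 2 minus replicate 1 was correlated between tissues over all regions. Pearson's r ran from −0.22 to 0.20 over the 10 tissue pairs, of which 4 exceeded 0.1. These values show no pairing common to all tissues and cannot exclude a pairing of some. With the replicate block 18 of 27 regions were called over the 5 tissues instead of 19, the *Rad50* intron 24 region being lost (adjusted p = 0.0564). With 2 libraries per tissue, simulated 2-fold changes were mostly missed. The simulation changed 100 regions 2-fold and 100 regions 4-fold of 49981, whereas 44.2% of regions were called in the data. Its adjusted threshold was therefore stricter, so it does not give the share missed here, and uncalled regions may still differ.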

Other observations

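Among 49950 regions outside the locus, the one whose level over the 10 libraries was most like the region between *Il4* and *Il13* lay at −5461 bp from the start of *Neu3* (Pearson's r = 0.99), and rose in the intestinal contrast by 2.1 on the log2 scale. The next were in or near *Tpst2* (r = 0.99, log2 1.32) and *Ccdc117* (r = 0.98, log2 0.49). This region was chosen for the comparison after its values were seen, and the points share their libraries, so the values are a description.

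Within each library, the counts at the *Il13* 3′ end divided by those at the *Il13* promoter were 1.42 and 1.45 in lung and 0.409 to 0.727 in the other 8 libraries. The counts of the region between *Rad50* and *Il5* divided by those of the *Il5* promoter were 0.553 and 0.557 in pancreas and 0.128 to 0.402 in the other 8. In both cases the tissue with the highest level stood apart from the other libraries. Both regions were chosen after their high level in that tissue was seen, so the ratios are a description and no separate support.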
